A study of Mus musculus with 6 samples.

Results

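C1qa, C1qb and C1qc encode the A, B and C chains of complement component C1q. The 3 genes were taken by name from the deposited array values, with every probe set that carries exactly 1 gene symbol. They make up 3 of 18194 genes and 5 of 34958 such probe sets: 1 for C1qa, 3 for C1qb and 1 for C1qc. The genes were chosen with their levels on these arrays known, as a locus whose transcripts differ strongly between the groups. Their own levels and differences are therefore described below without a test, and tests are given for other genes.

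The arrays held RNA from cultured testis cells of male ICR mice aged 3 to 5 days. Colonies, passaged on feeder layers of mouse embryonic fibroblasts stopped with mitomycin, were picked by hand and shape into 3 groups: multipotent spermatogonial stem cells (mSSC), intermediate ones (iSSC) and unipotent germ-line ones (SSC). The labels name no engineered allele. All 3 groups share the origin from a whole testicular cell suspension and the feeder protocol, and flattened or ES-like colonies either stayed in germ stem cell medium or moved to a medium for embryonic stem cells. Each group has 2 arrays, and the labels do not say whether these are separate cultures or animals, so each p-value covers the spread of these arrays alone, which may be technical. Both early passages (0 to 1) and middle ones (9 to 10) went onto feeders, and the labels do not tie an array to a passage or a medium.

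C1q is the recognition unit of the classical complement pathway. Its 3 chains assemble into a bundle of collagen-like stalks with globular heads that bind antibody complexes, dying cells and microbes, and the bound molecule activates the proteases C1r and C1s. Unlike most complement proteins, which the liver secretes, C1q is made mainly by macrophages and related myeloid cells, and the testis holds resident macrophages between and around its tubules.

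In mouse the 3 genes lie next to each other on chromosome 4. In the assembly GRCm38.p6 C1qb spans chr4:136880126-136886200, C1qc chr4:136889801-136892936 and C1qa chr4:136895916-136898844. Together they cover 18719 bases, with gaps of 3600 bases between C1qb and C1qc and 2979 bases between C1qc and C1qa. The 250 bases before the start of C1qb and of C1qc, from RefSeq (GRCm38.p6, minus strand), are printed 5′ to 3′ because the transcripts move together on the arrays. C1qb is at chr4:136886201-136886450 and C1qc at chr4:136892915-136893164. The C1qc window overlaps that gene's annotated span at its 5′ end, up to chr4:136892936. The start from which its positions are counted thus lies inside that span. For C1qa no promoter is printed. Capitals mark GCTGAC and TGCTGA, letters of the half-site that Maf transcription factors bind, and GAGGAA, the core that PU.1 binds, on either strand.
C1qb: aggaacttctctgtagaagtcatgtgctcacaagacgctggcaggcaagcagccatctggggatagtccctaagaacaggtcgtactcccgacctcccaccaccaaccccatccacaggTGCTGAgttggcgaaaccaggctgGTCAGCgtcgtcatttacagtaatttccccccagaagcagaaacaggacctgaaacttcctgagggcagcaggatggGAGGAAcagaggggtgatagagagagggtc
C1qc: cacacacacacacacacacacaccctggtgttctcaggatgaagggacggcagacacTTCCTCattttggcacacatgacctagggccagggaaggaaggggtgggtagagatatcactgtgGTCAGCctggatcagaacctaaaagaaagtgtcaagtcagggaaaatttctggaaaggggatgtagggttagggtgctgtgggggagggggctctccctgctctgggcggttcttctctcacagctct
Both windows held GCTGAC, read on the opposite strand as GTCAGC, at -107 to -102 before the start of C1qb and at -128 to -123 before that of C1qc. C1qb also held TGCTGA at -131 to -126, and its GAGGAA lay at -30 to -25. In C1qc GAGGAA was read as TTCCTC at -193 to -188. GCTGAC occurs in 12.9% of 32851 promoter windows of this length, TGCTGA in 16.1%, GAGGAA in 23.3%, and GCTGAC together with GAGGAA in 3.04%. GCTGAC and TGCTGA share 5 letters and can overlap, and the motifs were chosen with the 2 sequences in view. A match in these letters is a description of the window.

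The deposited values are log2 signals after RMA, in which a difference of 1 is 2-fold. The median of an array lay between 5.83 and 5.93 and the lower quartile between 4.23 and 4.38. Markers of the labelled cells were present: the median level of 10 germ cell genes was 7.41 and 7.59 in mSSC, 10.88 and 11.23 in iSSC and 10.74 and 11.02 in SSC. Nanog, a pluripotency factor picked for this check after its values were known, stood at 11.58 and 12.44 in the mSSC arrays and at 3.25 to 3.62 in the other 4. Macrophage genes, which none of the labels name, were also high in iSSC and SSC, as given below.

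C1q transcripts were near the lower quartile of the array in mSSC, intermediate in iSSC and high in SSC. C1qa, the A chain, read 4.72 and 4.56 in mSSC, 9.95 and 8.79 in iSSC and 12.67 and 11.99 in SSC. C1qb, the B chain, read 4.11 and 4.14 in mSSC, 9.57 and 8.60 in iSSC and 12.51 and 12.07 in SSC. C1qc, the C chain, read 4.88 and 4.30 in mSSC, 8.72 and 7.91 in iSSC and 11.77 and 11.12 in SSC. For each chain the mSSC arrays were lowest and the SSC arrays highest, with no overlap between groups. In mSSC the chains exceeded 19.5% to 34.3% of all probe sets of their array, in iSSC 71.5% to 88.9%, and in SSC 95.1% to 98.9%. In these bulk samples fewer cells that make C1q and less C1q RNA per cell cannot be told apart.

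**Figure D1:**
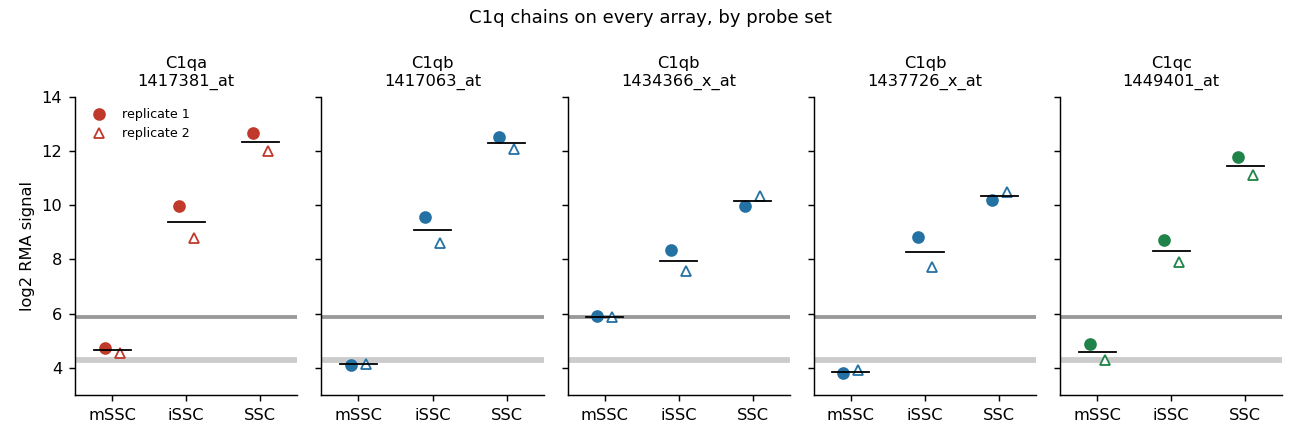
Log2 RMA signal of the 5 C1q probe sets on each of the 6 arrays, by group. Filled circles are replicate 1, open triangles replicate 2, and black lines the mean of the 2 arrays. The light and dark grey bands span the lower quartiles (4.23 to 4.38) and medians (5.83 to 5.93) of the 6 arrays. Every probe set has its lowest values in mSSC and its highest in SSC.

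As differences of group means on the log2 scale, with the SE of the fit over all 6 arrays (n = 2 arrays per group), the mSSC minus SSC values were -7.69 ± 0.43 for C1qa, -8.17 ± 0.35 for C1qb and -6.85 ± 0.39 for C1qc. Since the mSSC levels lie near the bottom of the array, no fold is given for mSSC. In iSSC against SSC the differences were -2.95 ± 0.43 for C1qa, -3.21 ± 0.35 for C1qb and -3.12 ± 0.39 for C1qc, so that C1qa was 7.75-fold, C1qb 9.26-fold and C1qc 8.71-fold lower in iSSC. In mSSC against iSSC they were -4.73 ± 0.43, -4.96 ± 0.35 and -3.73 ± 0.39 in the same order. Any 2 of these comparisons share the arrays of a group. All 3 chains were lower without overlap in mSSC than in SSC, as were 26.3% of all genes. The same holds in iSSC against SSC (17.7% of all genes) and in mSSC against iSSC (33.2%). Nothing is read from these counts, because the genes were chosen for the pattern.

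The 3 probe sets of C1qb gave the same order of groups with different sizes. Probe set 1417063_at, which stands for the gene above, had the highest mean of the 3. Probe set 1437726_x_at read 3.80 and 3.90 in mSSC, 8.83 and 7.73 in iSSC and 10.20 and 10.47 in SSC. Probe set 1434366_x_at read 5.92 and 5.86 in mSSC, 8.33 and 7.56 in iSSC and 9.98 and 10.34 in SSC. The suffix x marks probes that may also match other transcripts. The mSSC minus SSC difference was -8.17, -6.48 and -4.27 in these probe sets, and the smallest belongs to the one whose mSSC level sits at the array median rather than near the lower quartile. The iSSC minus SSC difference was -3.21, -2.05 and -2.21.

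The chains followed each other over the arrays. Pearson's r over the 6 arrays, which share the group pattern, was 0.999 for C1qa with C1qb and 0.995 for C1qc with either. After each chain was centred on its own mean over the arrays, the 3 chains lay within 1.16 and 0.54 of each other on the mSSC arrays, 0.56 and 0.30 on the iSSC arrays and 0.36 and 0.57 on the SSC arrays. The iSSC replicates were far apart for all 3 chains. Replicate 1 exceeded replicate 2 by 1.16 for C1qa, 0.97 for C1qb and 0.81 for C1qc, and by 1.09 and 0.77 for the other C1qb probe sets. Of all genes 99.02%, 98.2% and 96.6% had a smaller gap between the iSSC arrays than C1qa, C1qb and C1qc had. Between the SSC arrays replicate 1 was higher by 0.69, 0.44 and 0.65, and smaller gaps were found for 78.1%, 60.0% and 76.3% of genes. The 2 other C1qb probe sets went the other way in SSC, with replicate 1 minus replicate 2 at -0.36 and -0.27. The mean difference of the 3 chains between iSSC and SSC was -2.61 without iSSC replicate 2 and -3.59 without iSSC replicate 1.

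The 10 genes whose centred profile lay nearest to the mean of the 3 chains, by root mean square distance over the 6 arrays, were Mpeg1, Tyrobp, Ms4a7, Gpnmb, Ms4a6d, Cd93, Ctss, Ms4a6b, Plek and Fcer1g. Mpeg1, a pore-forming protein of macrophages, was closest at 0.36, about that of C1qc itself, and the median distance over all other genes was 3.16. It read 5.37 and 5.51 in mSSC, 9.84 and 9.45 in iSSC and 12.92 and 11.83 in SSC. Tyrobp, a signalling adaptor of myeloid receptors, followed at 0.51 and Fcer1g, an adaptor of Fc receptors, was last of the 10 at 0.88. Of the 10 genes 5 belong to the list of 23 macrophage markers. By Pearson's r 13 genes reached 0.99 with the mean profile. Likeness over 6 arrays in 3 groups is a description. Of the 10 genes 7 had a promoter entry, and 1 held GCTGAC, 2 held GAGGAA and 0 held both, where 12.9%, 23.3% and 3.04% of all windows did.

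**Figure D2:**
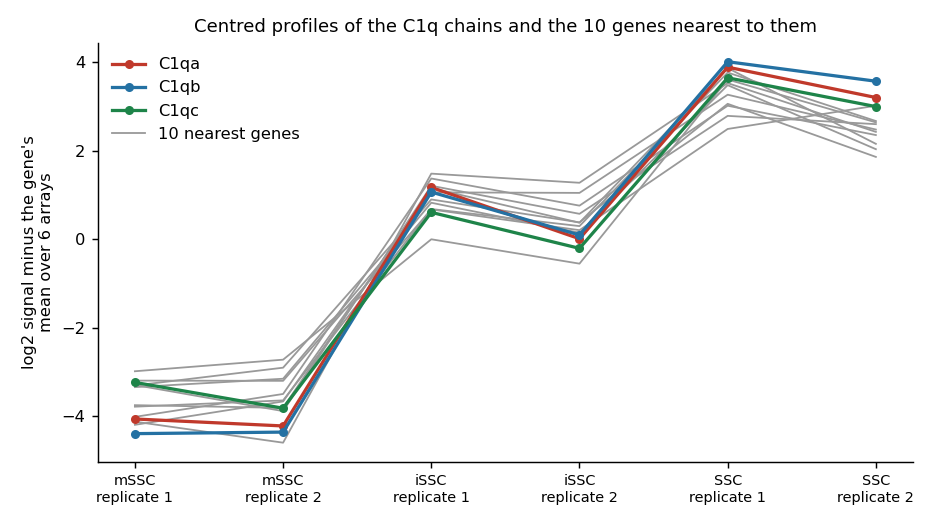
Log2 signal of each C1q chain (coloured) and of the 10 genes nearest to them (grey), each minus its own mean over the 6 arrays, by array. All curves are lowest in mSSC and highest in SSC, and in the C1q curves iSSC replicate 1 lies 0.81 to 1.16 above replicate 2.

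Macrophage markers were lower along with C1q. Here a gene counts as called where limma, adjusted by Benjamini-Hochberg over all 18194 genes, gave it a p below 0.05. Of 23 markers 19 fell in mSSC against SSC and 0 rose, where 10.6% of all genes were called lower and 8.22% higher. The list median was -3.18, against 0.08 over all genes. Lyz2, a lysozyme, changed by -8.06 ± 0.30 (adjusted p = 0.00021), Ctss, a lysosomal protease, by -7.34 ± 0.39 (adjusted p = 0.00052), Csf1r, the receptor that macrophages need to survive, by -5.29 ± 0.37 (adjusted p = 0.00099) and Adgre1, the F4/80 antigen, by -4.41 ± 0.39 (adjusted p = 0.0018). Cd68, a lysosomal glycoprotein, changed by -3.07 ± 0.63 (adjusted p = 0.022, lost without SSC replicate 1 or mSSC replicate 1) and still read 8.16 and 9.84 in mSSC, against 12.68 and 11.46 in SSC. Ptprc, the leukocyte phosphatase CD45, which is not in the list, changed by -5.03 ± 0.44 (adjusted p = 0.0017), with this sign in 1 of its 2 probe sets. The 4 markers not called were Cd163, Cx3cr1, Timd4 and Laptm5, of which Laptm5 read 10.02 and 11.27 in mSSC and 11.40 and 11.28 in SSC. In SSC Cd163 read 3.63 and 3.54, Cx3cr1 4.20 and 4.92 and Timd4 3.36 and 3.34. These levels lie below the array median, so a fall could hardly be seen there. The summed linear signal of the 23 markers was 2245 and 4306 in mSSC, 24561 and 15388 in iSSC and 72367 and 44809 in SSC. The part of macrophage content in the C1q differences was not tested.

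In iSSC against SSC 5 of the 23 markers fell and 0 rose, where 1.87% of all genes were called lower and 0.225% higher. The list median was -1.47, against 0.10 over all genes. The 5 were Stab1, a scavenger receptor (-3.76 ± 0.46, adjusted p = 0.029), Mrc1, the mannose receptor (-3.30 ± 0.52, adjusted p = 0.039), Mpeg1 (-2.73 ± 0.38, adjusted p = 0.032), Csf1r (-2.53 ± 0.37, adjusted p = 0.035) and Ms4a7 (-1.80 ± 0.31, adjusted p = 0.048). Without SSC replicate 1, iSSC replicate 1 or iSSC replicate 2 limma called 0 of the markers and 0 of all genes, with 11, 16 and 10 markers at an unadjusted p under 0.05. The count was 8 without SSC replicate 2. With the probe sets of each gene averaged it was 0 (limma, 17 at an unadjusted p under 0.05).

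The markers differed widely in how far iSSC stood below SSC. Lyz2 read 13.61 and 12.80 in iSSC and 14.27 and 14.16 in SSC, a difference of -1.01 ± 0.30 (adjusted p = 0.17). Adgre1 read 9.19 and 8.79 in iSSC and 9.13 and 9.06 in SSC, at -0.11 ± 0.39 (adjusted p = 0.93). Stab1 read 5.63 and 4.87 in mSSC, 5.44 and 5.68 in iSSC and 9.95 and 8.68 in SSC, with iSSC as low as mSSC. The C1q chains, at -2.95 to -3.21, stood between Mrc1 (-3.30) and Mpeg1 (-2.73). Stab1 and Mrc1 were the only markers with a larger decrease than any of the chains in that comparison. Ptprc, outside the list, changed by -3.26 ± 0.44 there (adjusted p = 0.030), a sign that 1 of its 2 probe sets had, and lost its call without SSC replicate 1, without either iSSC array or with probe sets averaged. Against SSC, 0 markers in mSSC had a larger decrease than C1qb, 1 (Lyz2) had a larger one than C1qa, and 3 (Lyz2, Ctss and Mpeg1) had a larger one than C1qc. The positions of C1qb are those of probe set 1417063_at and change with the probe set. Relative to SSC, probe set 1437726_x_at was at -6.48 for mSSC and -2.05 for iSSC. Probe set 1434366_x_at was at -4.27 and -2.21. Lyz2, Ctss, Mpeg1 and Tyrobp had larger mSSC decreases than both, and further markers exceeded -4.27. For iSSC, Stab1, Mrc1, Mpeg1, Csf1r and Tyrobp exceeded both. These are positions in a description, and the difference between C1q and the other markers was not tested.

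In mSSC against iSSC 12 of the 23 markers fell and 0 rose, where 9.6% of all genes were called lower and 7.53% higher. Lyz2 (-7.05 ± 0.30, adjusted p = 0.00029), Ctss (-5.74 ± 0.39, adjusted p = 0.0011), Ms4a7 (-4.48 ± 0.31, adjusted p = 0.0012) and Mpeg1 (-4.20 ± 0.38, adjusted p = 0.0022) had the smallest p-values. The list median was -1.45, against -0.01 over all genes. Without iSSC replicate 1 the count was 8.

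The gap between the iSSC replicates seen for C1q also ran through the markers. Of the 23 markers 20 were higher in iSSC replicate 1 than in replicate 2, as were 57.6% of all genes, and 21 were higher in SSC replicate 1 than in replicate 2, as were 62.3% of all genes. In mSSC 13 of 23 were higher in replicate 1, against 60.2% of all genes. The median level of the markers was 5.28 and 5.51 in mSSC, 8.70 and 7.95 in iSSC and 9.95 and 9.06 in SSC.

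**Figure D3:**
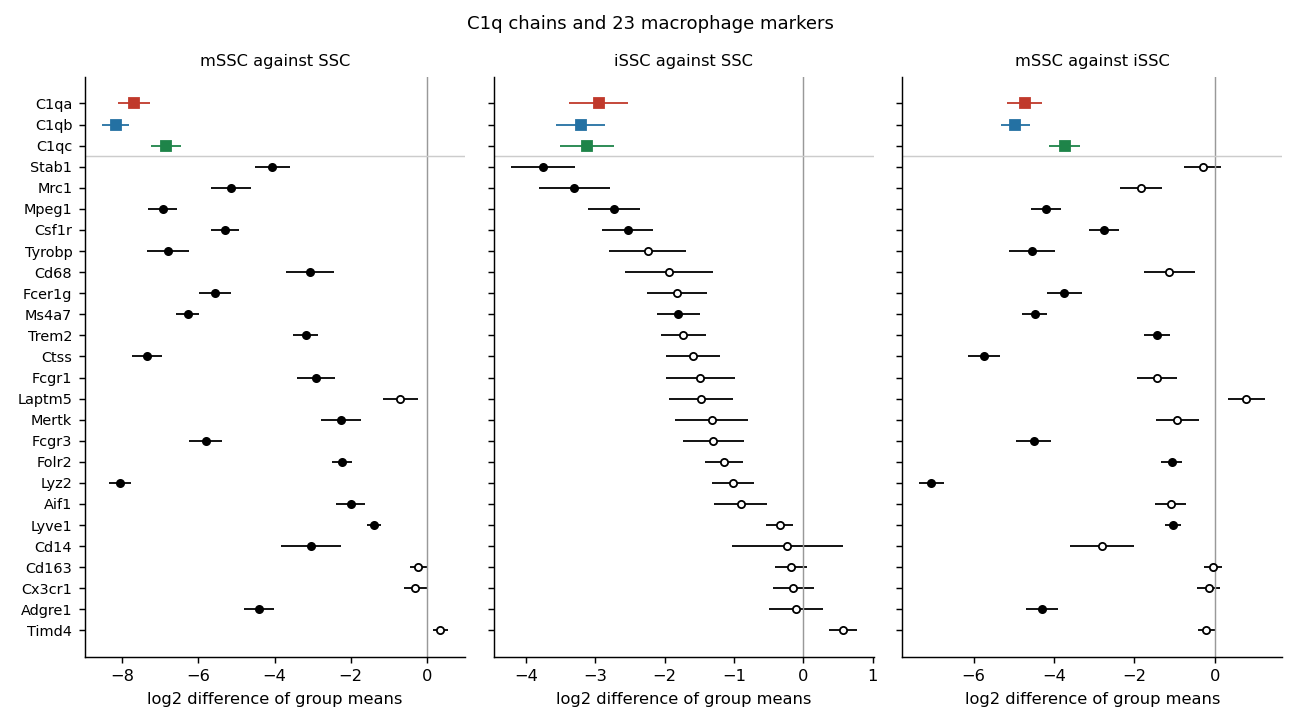
Log2 difference of group means in the 3 comparisons for the C1q chains (coloured squares, not tested) and 23 macrophage markers (circles), with bars of 1 SE. Filled circles are called at an adjusted p under 0.05, and markers are ordered by the iSSC minus SSC difference. The C1q chains stand at -2.95 to -3.21 in iSSC against SSC, between Mrc1 (-3.30) and Mpeg1 (-2.73). For C1qb this position is that of probe set 1417063_at.

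Of 11 measured transcription factors of macrophages 3 fell in mSSC against SSC, 1 in iSSC against SSC and 1 in mSSC against iSSC, while 0 rose. The share of all genes called lower was 10.6%, 1.87% and 9.6%, and 7, 2 and 6 of the factors had an unadjusted p under 0.05 (limma). The medians in this order were -1.61, -0.67 and -1.35. Maf, whose family binds the half-site printed in capitals above, read 4.52 and 5.65 in mSSC, 6.94 and 7.01 in iSSC and 9.54 and 10.84 in SSC. It changed by -5.11 ± 0.52 in mSSC against SSC (adjusted p = 0.0027) and by -3.22 ± 0.52 in iSSC against SSC (adjusted p = 0.041), with the first of these signs in 5 of its 6 probe sets. The second was not called without any 1 of the SSC or iSSC arrays, with probe sets averaged or with repeated quantile normalization. Spi1, which encodes PU.1, read 6.65 and 6.48 in mSSC, 7.56 and 6.97 in iSSC and 9.76 and 7.95 in SSC. It changed by -2.29 ± 0.57 in mSSC against SSC (adjusted p = 0.038) and was at -1.59 ± 0.57 in iSSC against SSC (adjusted p = 0.24). Without SSC replicate 1, either iSSC array or either mSSC array the mSSC call of Spi1 was lost. Cebpa, another myeloid factor, changed by -2.48 ± 0.54 in mSSC against SSC (adjusted p = 0.025) and Cebpb by -2.35 ± 0.46 in mSSC against iSSC (adjusted p = 0.019). Each lost its call without either iSSC array or without mSSC replicate 1, and Cebpa also without mSSC replicate 2.

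The other complement genes moved in part. Of 46 genes of the classical, lectin, alternative and terminal pathways with their regulators and receptors, 36 had a value. In mSSC against SSC 11 fell and 0 rose, with a median of 0.01, against 0.08 over all genes. In iSSC against SSC 2 fell and 0 rose, and in mSSC against iSSC 5 fell and 0 rose, and the medians were -0.03 and -0.07. Over all genes 10.6%, 1.87% and 9.6% were called lower in these comparisons. The first count was 7 lower and 0 higher without SSC replicate 1 or either iSSC array, and 6 lower and 1 higher (Cd55, a regulator, named after its values were seen) without mSSC replicate 1. C1s1, Fcna, Clu, C3ar1, Itgam and Itgb2 were called whichever array was left out. The second was 0 without SSC replicate 1 or either iSSC array (limma, with 8, 7 and 6 genes at an unadjusted p under 0.05) and 4 without SSC replicate 2. The third was 1, C3ar1, without iSSC replicate 1, and 3 without iSSC replicate 2 or mSSC replicate 1.

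Among the partners of C1q in the classical pathway, 3 of 8 listed genes had a value. C1s1, which encodes the protease C1s, read 6.62 and 7.02 in mSSC, 8.30 and 8.40 in iSSC and 8.49 and 8.66 in SSC. It changed by -1.75 ± 0.23 in mSSC against SSC (adjusted p = 0.0056) and by -1.53 ± 0.23 in mSSC against iSSC (adjusted p = 0.0086, lost without either iSSC array), and was at -0.22 ± 0.23 in iSSC against SSC (adjusted p = 0.70). C1ra, for the protease C1r, changed by -1.91 ± 0.39 in mSSC against SSC (adjusted p = 0.022, lost without SSC replicate 1, either iSSC array or mSSC replicate 1) and was at -0.54 ± 0.39 in iSSC against SSC (adjusted p = 0.56). C2, the protease that joins C4 in the next step, was at -1.05 ± 0.51 in mSSC against SSC (adjusted p = 0.21) and -0.66 ± 0.51 in iSSC against SSC (adjusted p = 0.59). With 1 array left out, C2 in iSSC against SSC lay between -1.30 (without SSC replicate 2) and -0.012 (without SSC replicate 1), and C1ra between -1.09 and 0.00085 (without the same arrays). The C1q chains stood at -2.95 to -3.21 in this comparison, and the difference between them and these genes was not tested. The classical list had 2 lower members in mSSC against SSC, 0 called in iSSC against SSC (limma, 0 at an unadjusted p under 0.05) and 1 lower in mSSC against iSSC. The shares of all genes called lower were 10.6%, 1.87% and 9.6% in this order.

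Of 10 measured lectin and alternative pathway genes 2 fell in mSSC against SSC, 1 fell in iSSC against SSC and 0 were called in mSSC against iSSC (limma, 1 at an unadjusted p under 0.05). The shares of all genes called lower were 10.6%, 1.87% and 9.6% in the same order. Fcna, a ficolin that mouse macrophages make, read 5.36 and 5.31 in mSSC, 5.95 and 5.74 in iSSC and 8.01 and 8.10 in SSC. It changed by -2.72 ± 0.20 in mSSC against SSC (adjusted p = 0.0011) and by -2.21 ± 0.20 in iSSC against SSC (adjusted p = 0.021, lost without SSC replicate 1 or either iSSC array). Cfp, properdin, which stabilises the alternative convertase, changed by -2.86 ± 0.64 in mSSC against SSC (adjusted p = 0.027, lost without SSC replicate 1 or either mSSC array and with probe sets averaged). Cfb, the protease of that convertase, was at 0.69 ± 0.49 in mSSC against SSC (adjusted p = 0.38) and 1.40 ± 0.49 in iSSC against SSC (adjusted p = 0.23). The 6 measured terminal pathway genes had 0 calls in each comparison (limma, 1 at an unadjusted p under 0.05 in each). Their median level was 4.66 and 4.40 in SSC, below the array median, so for most a fall could hardly be seen.

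Of 10 measured regulators 2 fell in mSSC against SSC, 0 were called in iSSC against SSC (limma, 2 at an unadjusted p under 0.05) and 1 fell in mSSC against iSSC. Among all genes 10.6%, 1.87% and 9.6% were called lower in the same order. Clu, clusterin, which blocks the terminal complex and which Sertoli cells also make in quantity, read 9.41 and 9.14 in mSSC, 11.72 and 10.46 in iSSC and 13.20 and 13.42 in SSC. It changed by -4.04 ± 0.41 in mSSC against SSC (adjusted p = 0.0027) and by -1.82 ± 0.41 in mSSC against iSSC (adjusted p = 0.030, lost without iSSC replicate 1 or either mSSC array), and was at -2.22 ± 0.41 in iSSC against SSC (adjusted p = 0.056). Cr1l, which encodes the membrane regulator Crry, changed by -1.08 ± 0.22 in mSSC against SSC (adjusted p = 0.020, lost without SSC replicate 1, either iSSC array or mSSC replicate 1 and with probe sets averaged). Serping1, the inhibitor of C1r and C1s, differed more between replicates than between groups, with 7.76 and 9.02 in mSSC, 9.48 and 8.42 in iSSC and 9.75 and 7.45 in SSC.

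Of 7 measured receptors for complement fragments 5 fell in mSSC against SSC, 1 fell in iSSC against SSC and 3 fell in mSSC against iSSC. Lower calls made up 10.6%, 1.87% and 9.6% of all genes in the same order. Of the 5, 3 (C3ar1, Itgam and Itgb2) were called whichever array was left out. C3ar1, the receptor for C3a, read 5.55 and 5.41 in mSSC, 7.77 and 7.89 in iSSC and 9.50 and 9.29 in SSC. The groups did not overlap, and it fell in all 3 comparisons, with differences of -3.92 ± 0.21 in mSSC against SSC (adjusted p = 0.00052), -1.57 ± 0.21 in iSSC against SSC (adjusted p = 0.029, lost without SSC replicate 1 or either iSSC array and with probe sets averaged) and -2.35 ± 0.21 in mSSC against iSSC (adjusted p = 0.0021). Itgb2, the beta chain of complement receptor CR3, changed by -5.17 ± 0.61 in mSSC against SSC (adjusted p = 0.0041), and Itgam, its alpha chain, by -2.18 ± 0.25 (adjusted p = 0.0038). C5ar1, a receptor for C5a, changed by -1.53 ± 0.35 in mSSC against SSC (adjusted p = 0.029, lost without any 1 of the mSSC or iSSC arrays). Vsig4, named after its values were seen, changed by -0.96 ± 0.23 in mSSC against SSC (adjusted p = 0.033). Its call was lost whichever array was left out.

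Among 7 proteins reported to bind C1q, 2 fell in mSSC against SSC, 0 were called in iSSC against SSC (limma, 3 at an unadjusted p under 0.05) and 1 fell in mSSC against iSSC. Lower calls over all genes came to 10.6%, 1.87% and 9.6% in this order. Cd93, a glycoprotein of myeloid and endothelial cells, read 3.91 and 4.10 in mSSC, 8.08 and 7.40 in iSSC and 10.74 and 9.29 in SSC, and changed by -6.01 ± 0.49 in mSSC against SSC (adjusted p = 0.0014), with this sign in 4 of 5 probe sets. Lrp1, an uptake receptor, changed by -2.19 ± 0.43 (adjusted p = 0.018, lost without either mSSC array and with probe sets averaged). C1qbp, which carries C1q binding in its name but lies mainly in mitochondria, read 13.87 and 14.03 in mSSC, 13.38 and 13.53 in iSSC and 13.83 and 13.48 in SSC, with no call.

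**Figure D4:**
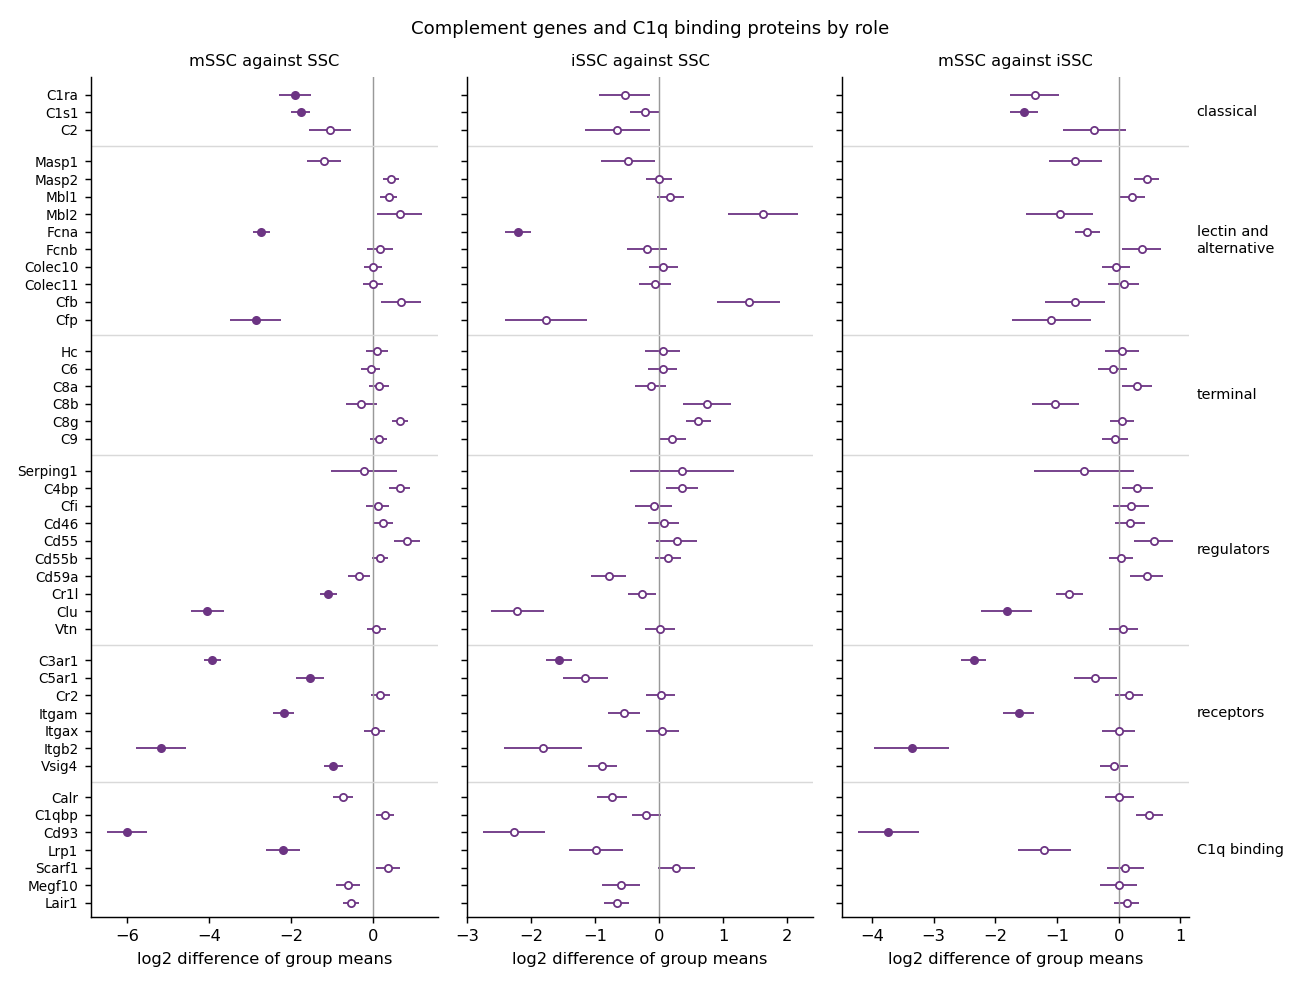
Log2 difference of group means in the 3 comparisons for 36 complement genes and 7 C1q binding proteins, grouped by role, with bars of 1 SE. Filled circles are called at an adjusted p under 0.05. Each panel has its own horizontal scale. All filled circles lie below 0, and 2 complement genes, Fcna and C3ar1, are filled in iSSC against SSC.

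Of 24 measured other genes with a C1q-type globular domain, 9 fell and 1 rose in mSSC against SSC, 0 were called in iSSC against SSC (limma, 9 at an unadjusted p under 0.05), and 5 fell and 1 rose in mSSC against iSSC. Their medians were -0.70, -0.02 and -0.31. Over all genes 10.6%, 1.87% and 9.6% were called lower and 8.22%, 0.225% and 7.53% higher in this order. With each array left out in turn, 0 of the 10 calls in mSSC against SSC and 0 of the 6 in mSSC against iSSC held every time (limma, 12 and 9 genes at an unadjusted p under 0.05 with all arrays). Mmrn2, a matrix protein of blood vessels, was the one that rose, by 2.58 ± 0.46 in mSSC against SSC (adjusted p = 0.014, lost without SSC replicate 1). C1qtnf1 changed by -2.22 ± 0.42 in mSSC against SSC (adjusted p = 0.017, lost without mSSC replicate 2). C1qtnf4 changed by -2.51 ± 0.40 in mSSC against iSSC (adjusted p = 0.010, lost without either iSSC array). Adipoq, adiponectin, named after its values were seen, stood highest in iSSC. It read 3.74 and 3.80 in mSSC, 6.69 and 5.14 in iSSC and 3.81 and 3.84 in SSC. It changed by -2.14 ± 0.47 in mSSC against iSSC (adjusted p = 0.028, lost without iSSC replicate 1 or either mSSC array).

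Calls among the genes around the locus ran in both directions. Of the 10 nearest measured genes on each side, 1 fell and 4 rose in mSSC against SSC, 0 were called in iSSC against SSC (limma, 2 at an unadjusted p under 0.05), and 1 fell and 3 rose in mSSC against iSSC. Over all genes 10.6% fell and 8.22% rose in mSSC against SSC. In iSSC against SSC 1.87% of all genes fell and 0.225% rose, so the 0 calls are near that share. In mSSC against iSSC 9.6% of all genes fell and 7.53% rose. The neighbour medians were 0.32, 0.06 and -0.02. Epha8, an ephrin receptor 30574 bases beyond C1qa, was at -0.35 ± 0.27 in mSSC against SSC (adjusted p = 0.42) and 0.21 ± 0.27 in iSSC against SSC (adjusted p = 0.77). On the other side Ephb2, 43799 bases from C1qb, had no value. Lactbl1, the nearest measured gene there, lies far off, at -261 kb from C1qc by midpoints. Lactbl1 was at 0.33 ± 0.23 in mSSC against SSC (adjusted p = 0.37). The only neighbour that fell, named after its values were seen as are the next 4, was Zfp46, a zinc finger gene (-1.91 ± 0.22 in mSSC against SSC, adjusted p = 0.0038). Those that rose in mSSC against SSC were Tcea3, a transcription elongation factor (2.43 ± 0.35, adjusted p = 0.0072), and E2f2, Usp48 and Rap1gap, at 0.87 to 1.07. Without 1 array these 3 lost their calls in at least 5 of 6 fits.

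**Figure D5:**
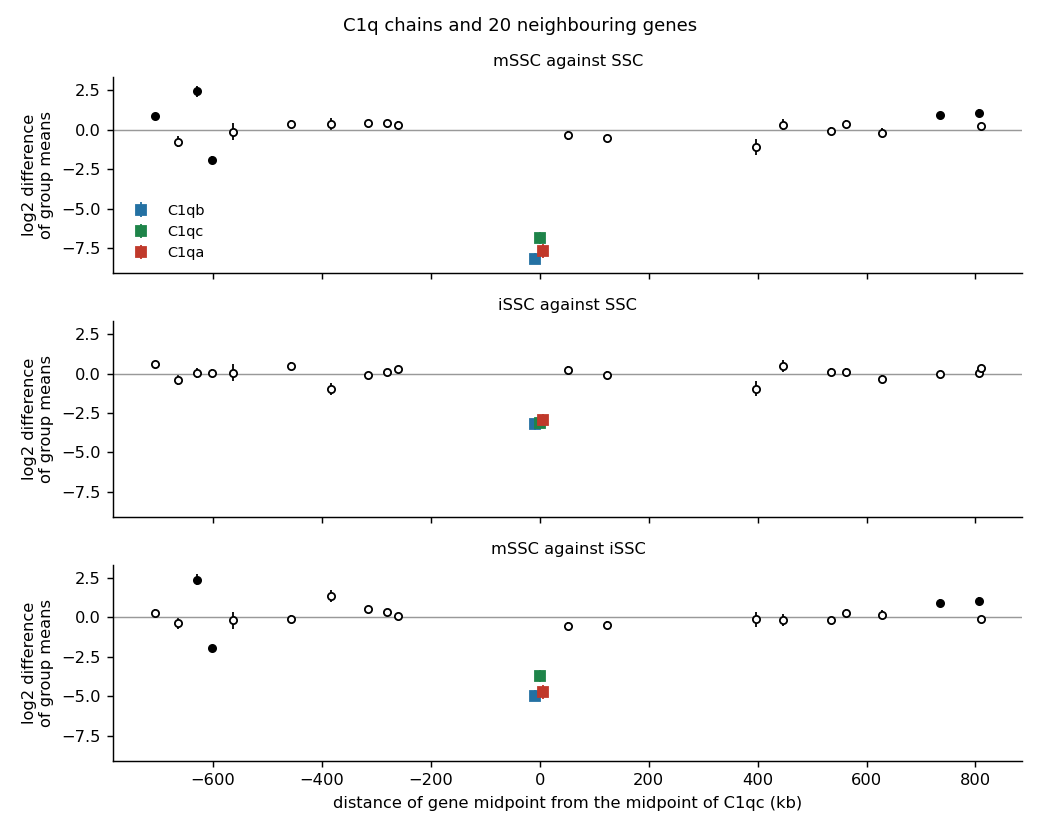
Log2 difference of group means in the 3 comparisons for the C1q chains (coloured squares, not tested) and the 20 nearest measured genes (circles), against the distance of each gene's midpoint from that of C1qc in kilobases, with bars of 1 SE. Filled circles are called at an adjusted p under 0.05. The chains lie at -6.85 to -8.17 in mSSC against SSC, and the neighbours between -1.91 and 2.43.

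Markers of other cell types give the setting of these values. Of 13 measured markers of other leukocytes 0 were called against SSC in mSSC or in iSSC (limma, 0 and 1 at an unadjusted p under 0.05), with medians of 0.12 and 0.17, and 1, Zbtb46, fell in mSSC against iSSC (-1.23 ± 0.27, adjusted p = 0.026, lost without either iSSC array or mSSC replicate 2). The median level of the 13 leukocyte genes was 4.89 and 4.69 in SSC, below the array median, so for most a fall could hardly be seen. Of 10 fibroblast markers 7 fell in mSSC against SSC, 1 in iSSC against SSC and 3 in mSSC against iSSC, and their medians were -3.68, -2.23 and -1.22. Col6a2, a collagen chain, changed by -4.73 ± 0.41 in mSSC against SSC (adjusted p = 0.0018). Of 10 germ cell markers 8 fell in mSSC against SSC, 0 were called in iSSC against SSC (limma, 3 at an unadjusted p under 0.05) and 9 fell in mSSC against iSSC. Of all genes 10.6%, 1.87% and 9.6% were called lower in these comparisons, in the order given. Gfra1, the Gdnf co-receptor of spermatogonial stem cells, read 5.45 and 5.71 in mSSC, 10.09 and 10.72 in iSSC and 9.56 and 10.14 in SSC. The germ cell median in iSSC against SSC was 0.19, where that of the macrophage markers was -1.47. The part of any of these cell types in the C1q differences was not tested.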

How the data were processed

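RNA from 6 samples of mouse testis-derived cells, 2 arrays for each of mSSC, iSSC and SSC, was measured on Affymetrix arrays. Per the labels, 10 µg of total RNA was amplified and biotin-labelled. The authors deposited log2 values made with RMA, per the submitters' processing notes. RMA subtracts background, normalizes quantiles and summarises probes, so levels near the bottom are compressed. For the version: not given in the sources used here.

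Of 45101 probe sets 34958 had exactly 1 symbol, 932 had several and 9211 were unnamed here. Gene identifiers matched RefSeq (GRCm38.p6) for 34754, with 0 symbols updated. The probe set with the highest mean stood for a gene (18194 genes, no filter on low values). A group-means model over all 6 arrays was fitted with limma 3.58.1 (R 4.3.3), with moderated variances and 2-sided tests, with Benjamini-Hochberg adjustment over all genes. The fits were tested on simulated data. Members, lists and tests were chosen with earlier results of these data known. Named genes are the chains, the 10 with the nearest profile, up to 4 called genes per list with the smallest p, a panel of complement and macrophage genes and the flanking genes. Others, among them Vsig4, C1qbp and Adipoq, were named with their values known. Of the listed genes some had no value and are not analysed here. Alternatives were fits on 4 arrays, a replicate term, a filter on dim genes, a variance trend, repeated quantile normalization, averaged probe sets and leaving out each array. The number of arrays limits the precision.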

Additional observations from a re-analysis of the deposited data

How the results depend on the processing

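The direction of the C1q differences was the same under repeated quantile normalization, averaged or other probe sets and each left-out array. The mean of the 3 chains in mSSC against SSC was -6.95 with probe sets averaged, against -7.57 otherwise, since the other C1qb probe sets differ less, and lay between -7.87 and -7.27 with 1 array left out. The ranges were -3.59 to -2.61 in iSSC against SSC and -4.96 to -3.98 in mSSC against iSSC. Such fits take the spread of the remaining pairs for the group left with 1 array. The genes called then numbered 1966 to 3462 (3425 with all arrays) in mSSC against SSC, 0 to 503 (381) in iSSC against SSC, where the 0 of limma came with 1357 to 2527 genes at an unadjusted p under 0.05, and 604 to 3724 (3117) in mSSC against iSSC. Complement genes called ranged over 7 to 10, 0 to 4 and 1 to 6, and macrophage markers over 16 to 19, 0 to 8 and 8 to 14. Among complement genes, C8g was called higher in mSSC against SSC with repeated quantile normalization or averaged probe sets, and Cd55 without mSSC replicate 1 and, in mSSC against iSSC, with averaged probe sets. In mSSC against SSC, fits on only the 4 arrays called 1966 genes and 7 complement genes, and the brighter genes alone held 7 called complement genes, since fewer genes were tested. In iSSC against SSC, averaged probe sets left 29 genes, 1 complement gene and 0 macrophage markers called (limma, 17 at an unadjusted p under 0.05), and repeated quantile normalization left 3 markers. The cause was not tested. The replicate block changed iSSC against SSC to 148 genes and 1 complement gene, and otherwise moved no such count by over 1.5 times. Replicate differences of the groups correlated across genes at 0.068 to 0.17, and the arrays share only a number. For 93 single gene results under up to 12 alternatives, 932 of 1093 values kept direction and side of the threshold, 139 were no longer called, 14 became called and 8 changed sign. None of the 8 was called. With 1 array left out, C1ra in iSSC against SSC lay between -1.09 and 0.00085 (the sign changed without SSC replicate 1), C2 in mSSC against iSSC between -0.80 and 0.018 (without iSSC replicate 1) and Adgre1 in iSSC against SSC between -0.30 and 0.089 (without iSSC replicate 2). Serping1 ranged from -1.36 to 0.94 in mSSC against SSC, changing sign without SSC replicate 1 and, at 0.42, without mSSC replicate 1. It ranged from -0.80 to 1.50 in iSSC against SSC, changing sign without SSC replicate 2 and, at -0.18, without iSSC replicate 1, and from -1.19 to 0.072 in mSSC against iSSC, changing sign without mSSC replicate 1.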

Other observations

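The mSSC replicates differed strongly in fibroblast transcripts, and C1qa and C1qb differed little between them. The summed linear signal of the 10 fibroblast markers was 2560 in mSSC replicate 1 and 12296 in replicate 2. Their median log2 level was 7.90 and 9.47, and 1 of 10 was higher in replicate 1, against 60.2% of all genes. Col1a2, a chain of type I collagen, read 8.02 and 10.95, and Lum, lumican, read 7.79 and 11.37. C1qa read 4.72 and 4.56, C1qb 4.11 and 4.14 and C1qc 4.88 and 4.30 on the same arrays, and the C1qc gap of 0.58 was larger than that of 78.1% of genes. Among the macrophage markers Cd68 (8.16 and 9.84), Laptm5 (10.02 and 11.27) and Cd14 (4.51 and 6.00) were higher in mSSC replicate 2, whereas Adgre1 (5.27 and 4.11) was higher in replicate 1. These genes were picked after their values were seen, and no test between 2 single arrays was made.

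S100a8, a calcium-binding protein of neutrophils and monocytes, did not follow C1q. It read 5.09 and 6.69 in mSSC, 9.57 and 10.79 in iSSC and 9.42 and 4.99 in SSC, and was not called in any comparison. S100a9, a gene of the same leukocyte list, read 4.59 and 3.69 in mSSC, 3.82 and 3.78 in iSSC and 4.02 and 4.02 in SSC. These levels are near or below the lower quartile of the array. S100a8 was picked after its values were seen.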
